A study of Mus musculus with 2 samples.

Results

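The genes described here are 8 CC chemokines of myeloid cells (Ccl2, Ccl3, Ccl4, Ccl6, Ccl7, Ccl8, Ccl9 and Ccl12) and 2 receptors of this family (Ccr1 and Ccr2), found by symbol as 10 of the 27998 gene rows of both count tables. RNA was counted as unique molecular identifiers (UMIs, each standing for 1 captured molecule) in single droplets holding CD45+ cells, the leukocytes drawn by magnetic beads from subcutaneous tumours of TSA, a mammary carcinoma line of Balb/c mice. The untreated library came from 3 pooled mice and held 2922 cells. The NAM library came from 3 pooled mice that drank water with 0.5% nicotinamide (NAM, a form of vitamin B3) over 10 days, and it held 3276 cells. Both groups shared the strain, the tumour line and the bead separation, and treatment started once tumours had been established. With 1 library per group no test was possible, so each difference is one between these libraries, and NAM, the pool of mice and the library cannot be told apart.

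CC chemokines are small secreted proteins that guide leukocytes through G protein-coupled receptors. Ccl2, Ccl7 and Ccl12 are ligands of Ccr2, the receptor that brings inflammatory monocytes from bone marrow into tissues and tumours, while mouse Ccl8 is best known as a ligand of Ccr8. Ccl3, Ccl6 and Ccl9 act on Ccr1. Several of these genes are also induced within minutes to hours when macrophages are activated or handled.

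The 10 genes lie in 3 blocks of the mouse genome (GRCm38, GENCODE vM21), and all are annotated as protein-coding. Ccl2 (chr11:82035571-82037453), Ccl7 (chr11:82045712-82047525), Ccl12 (chr11:82101845-82103400) and Ccl8 (chr11:82115185-82116799) are on the plus strand within 81.2 kb. A gap of 1456 kb separates them from Ccl9 (chr11:83572919-83578636), Ccl6 (chr11:83587882-83593087) and Ccl3 (chr11:83647844-83649355) on the minus strand and Ccl4 (chr11:83662584-83664683) on the plus strand, which span 91.8 kb. Ccr1 (chr9:123962124-123968692, minus strand) and Ccr2 (chr9:124101950-124113557, plus strand) span 151 kb. None of the 45 pairs of these genes shared a run of 30 transcript bases.

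Promoters of 7 of the 10 genes were found among RefSeq sequences of GRCm38.p6, each running from 250 bases before to 50 bases after the start that RefSeq gives the gene. For Ccl3 and Ccr2 that start is not the one of the GENCODE coordinates above. Ccl2, Ccl7 and Ccl4 had no match. Ccl12 and Ccl8, neighbours in the first block, are shown first, with the letters TATAAA in capitals.
Ccl12 (chr11:82101595-82101894, plus strand): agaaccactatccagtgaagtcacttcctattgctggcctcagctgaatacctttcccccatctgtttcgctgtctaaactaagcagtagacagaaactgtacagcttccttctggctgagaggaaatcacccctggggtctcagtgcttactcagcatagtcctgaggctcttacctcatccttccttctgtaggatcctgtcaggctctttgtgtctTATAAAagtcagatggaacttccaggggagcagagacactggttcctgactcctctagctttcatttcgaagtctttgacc
Ccl8 (chr11:82114935-82115234, plus strand): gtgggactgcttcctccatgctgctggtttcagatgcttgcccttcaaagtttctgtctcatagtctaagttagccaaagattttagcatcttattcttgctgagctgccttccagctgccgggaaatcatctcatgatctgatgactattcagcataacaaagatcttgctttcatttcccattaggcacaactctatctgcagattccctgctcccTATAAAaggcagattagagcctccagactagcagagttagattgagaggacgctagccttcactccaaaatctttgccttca
In Ccl12 the capitals began 31 bases before the start, and in Ccl8 they began 32 bases before it. TATAAA on either strand was found in 3 of the 7 promoters, against 13.6% of 32851 promoters of the same length.

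The neighbouring genes Ccl6 and Ccl9 are shown with the runs of 11 or more bases found in both promoters in capitals.
Ccl6 (chr11:83593038-83593337, minus strand): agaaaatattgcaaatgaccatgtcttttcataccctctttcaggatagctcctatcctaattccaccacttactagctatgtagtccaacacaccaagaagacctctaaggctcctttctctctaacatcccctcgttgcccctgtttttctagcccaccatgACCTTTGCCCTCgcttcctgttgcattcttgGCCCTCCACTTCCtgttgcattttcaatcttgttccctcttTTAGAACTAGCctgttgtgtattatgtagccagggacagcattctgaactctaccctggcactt
Ccl9 (chr11:83578587-83578886, minus strand): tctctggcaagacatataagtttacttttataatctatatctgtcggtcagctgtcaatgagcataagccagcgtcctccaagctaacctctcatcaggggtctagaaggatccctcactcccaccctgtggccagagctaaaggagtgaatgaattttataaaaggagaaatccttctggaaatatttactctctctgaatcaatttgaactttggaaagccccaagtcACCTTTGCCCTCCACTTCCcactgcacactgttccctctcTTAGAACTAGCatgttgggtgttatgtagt
Of the shared runs, ACCTTTGCCCTC and TTAGAACTAGC were each found in 4 of the 32851 promoters (0.0122%) and GCCCTCCACTTCC in 6 (0.0183%). These counts include the Ccl6 and Ccl9 promoters, from which the runs were taken. In Ccl9 the first of these runs overlaps GCCCTCCACTTCC, so that both form 1 stretch of capitals there. Among the 21 pairs of these promoters, 2 shared such a run, this pair and Ccl12 with Ccl8 (GCTTTCATTTC, in 22 promoters or 0.067%, their own included). How often other pairs of promoters share such a run was not measured. The NF-kappa B motif was in 2 of the 7 promoters (Ccl9 and Ccr1) and in 8.46% of all, TGANTCA in 1 (Ccl9) and 7.81%, TTNNGNAA in 4 and 40.7%, and neither GAAA followed after any 2 bases by GAAA nor TTCNNNGAA was in any of the 7, against 3.44% and 8.30% of all. Each motif was searched on both strands, and a match is a run of letters, not a measured binding site.

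The untreated library held 29161823 UMIs and the NAM library 32090120, with medians of 9056 and 9128 UMIs per cell. Cells were gated by UMIs of marker genes, none of them among the 10 genes described, and 2497 untreated and 2748 NAM cells fell into 12 myeloid groups, each called by its gate markers. Of these, 6 were groups of macrophages (1991 untreated and 2205 NAM cells in all, with 20 or more UMIs of C1qa, C1qb and C1qc). The other groups were Ly6c2 monocytes (175 and 191 cells), Tgfbi cells (141 and 145), Ctsk cells (111 and 123, with the osteoclast genes Ctsk, Acp5 and Mmp9) and 3 small groups of dendritic cells (79 and 84 cells in all). The 9 macrophage markers together stood at 35051 and 35782 CPM (UMIs per 1000000 UMIs of the group) in macrophages and at 1222 and 1179 CPM in lymphoid cells, and the 6 monocyte markers at 8371 and 8967 CPM in Ly6c2 monocytes. These sums hold the genes of the gates, which fix them in part (C1qa, C1qb and C1qc, and Ly6c2 and Plac8 at 4110 and 3753 CPM in untreated monocytes), while Thbs1, Vcan and Chil3, monocyte markers outside the gate, were at 342, 60.8 and 37.6 CPM there. Barcodes present in both libraries numbered 11. Intervals in parentheses are exact 95% intervals for counting error, and leave out the variation between cells and mice.

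Of the 8 chemokines, Ccl8 stood out by how far its highest group was above the next. In macrophages of the Cbr2 F13a1 gate, which express genes of tissue-resident macrophages such as Mrc1 and Folr2, Ccl8 stood at 16602 CPM (16429 to 16777) without and 17278 CPM (17029 to 17530) with NAM. That was 2.00-fold the next group in pooled order, the Vcam1 Dnase1l3 macrophages, at 8375 CPM (8285 to 8466) and 8555 CPM (8467 to 8644). Mmp12 macrophages followed with 4878 and 5236 CPM, after the interferon-high macrophages in the untreated library (6799 CPM) and ahead of them in the NAM library (4482 CPM). Each of the other 6 myeloid groups was below all 6 macrophage groups in both libraries, with Ctsk cells closest at 1940 CPM in the untreated library and 345 CPM in the NAM library.

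Ly6c2 monocytes had 284 CPM of Ccl8 in both libraries, and Tgfbi cells 322 and 276 CPM. Lymphoid cells, which should lack this RNA, had 265 and 217 CPM. After each cell was thinned to 3000 UMIs, 51.4% of untreated and 50.8% of NAM monocytes had a Ccl8 UMI (77.1% and 74.9% before thinning) as had 52.7% and 42.6% of lymphoid cells (70.0% and 57.1% before). Median depths were 5800 and 5178 UMIs in monocytes and 4660 and 4385 in lymphoid cells. The monocyte level was 1.07-fold and 1.31-fold the lymphoid level. Type 1 dendritic cells had 0.79-fold and 0.86-fold the lymphoid level, and all dendritic cells together 1.10-fold and 0.74-fold. Ccl8 in monocytes, Tgfbi cells and dendritic cells was therefore close to the background and is not read as expression.

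**Figure D1:**
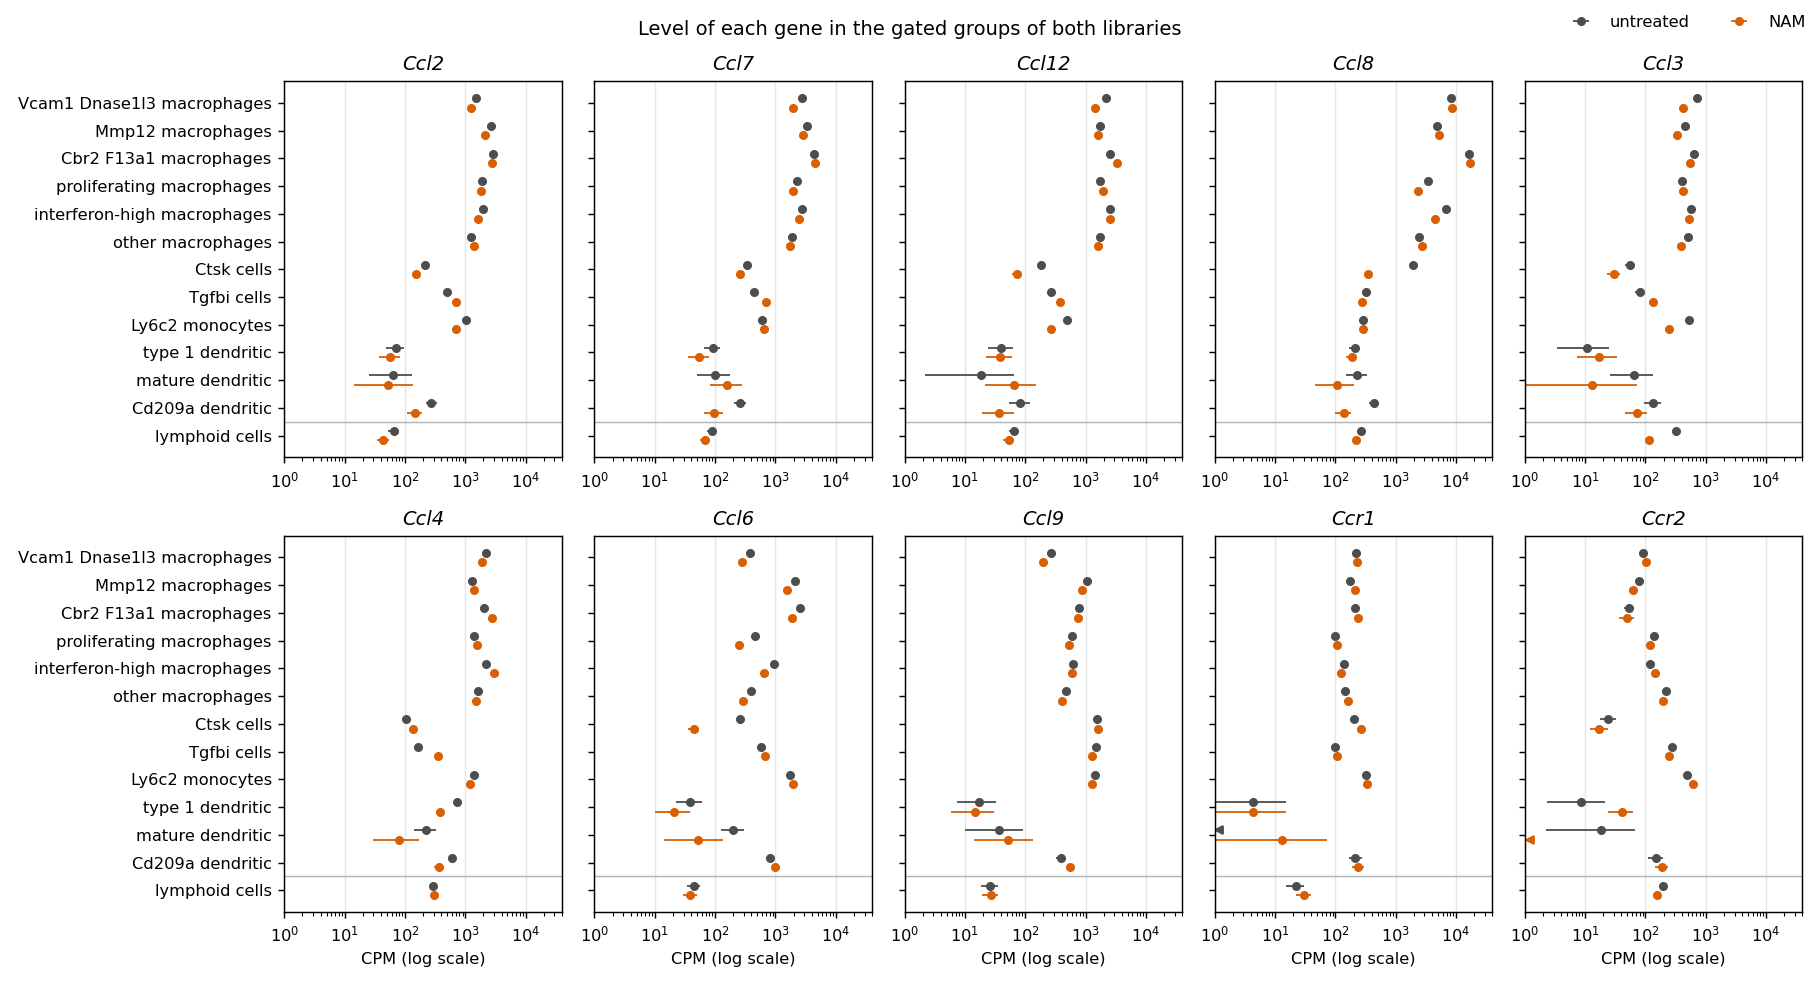
Level of each of the 10 genes (CPM, log axis, 1 panel per gene) in the 12 gated myeloid groups and in lymphoid cells. Points are the untreated (grey) and NAM (orange) library with exact 95% Poisson intervals as bars, and an arrowhead marks a group with 0 UMIs. Ccl8 is highest in Cbr2 F13a1 macrophages (16602 and 17278 CPM), Ccl9 in Ctsk cells (1529 and 1626 CPM) and Ccr2 in Ly6c2 monocytes (483 and 623 CPM).

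The Ccr2 ligands Ccl2, Ccl7 and Ccl12, all monocyte chemoattractants, were also at their highest in macrophages. Ccl7 stood at 4411 CPM (4322 to 4502) and 4524 CPM (4397 to 4654) in Cbr2 F13a1 macrophages, 1.46-fold the next group and above it in both libraries. Ccl7 then ran from 3323 and 2813 CPM in Mmp12 macrophages down to 1911 and 1757 CPM in macrophages of no other gate, and to 595 and 656 CPM in monocytes.

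For Ccl2 the order at the top was less clear. Cbr2 F13a1 macrophages held 2831 CPM (2760 to 2904) and 2771 CPM (2672 to 2873), and Mmp12 macrophages 2702 CPM (2640 to 2766) and 2092 CPM (2045 to 2140), so the intervals of these groups overlapped in the untreated library and not in the NAM library. Unlike Ccl8, Ccl2 was far above background in monocytes, at 1046 CPM (987 to 1108) and 706 CPM (657 to 757), or 16.1-fold and 16.2-fold the lymphoid level of 65.0 and 43.7 CPM.

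Ccl12 was highest in interferon-high macrophages of the untreated library (2563 CPM, 2484 to 2644, beside 2553 CPM in Cbr2 F13a1 macrophages) and in Cbr2 F13a1 macrophages of the NAM library (3327 CPM, 3218 to 3438). Its monocyte level was 496 and 267 CPM. Type 1 dendritic cells (the Xcr1 Clec9a gate) were at the lymphoid level for all 3 genes, with Ccl2 at 1.07-fold and 1.31-fold, Ccl7 at 1.04-fold and 0.82-fold and Ccl12 at 0.62-fold and 0.71-fold the lymphoid CPM.

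Ccl3 and Ccl4, macrophage inflammatory proteins that attract T cells and monocytes, were found in all 6 macrophage groups. Ccl3 ran from 407 to 703 CPM over the 6 macrophage groups of the untreated library and from 334 to 557 CPM over those of the NAM library. Its highest group was the Vcam1 Dnase1l3 macrophages (703 CPM, 677 to 730) in the untreated and the Cbr2 F13a1 macrophages (557 CPM, 513 to 604) in the NAM library. Monocytes were within that range in the untreated library (526 CPM) and below it in the NAM library (249 CPM). Lymphoid cells, which include T and NK cells that make Ccl3 and Ccl4 themselves, had 322 and 114 CPM of Ccl3, so they give no background for this pair. No other background was measured, so low levels of both genes in Tgfbi, Ctsk and dendritic cells may be background in part.

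Ccl4 ran from 1313 to 2220 CPM over the macrophage groups of the untreated library and from 1378 to 3022 CPM over those of the NAM library. The highest group differed between libraries, being the Vcam1 Dnase1l3 macrophages (2220 CPM, 2173 to 2267) without and the interferon-high macrophages (3022 CPM, 2943 to 3102) with NAM, and it was another group in each library after thinning. In type 1 dendritic cells Ccl4 stood at 737 CPM (661 to 818) without and 383 CPM with NAM, and 5 of the 30 untreated cells held 83.3% of its UMIs.

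Ccl6 and Ccl9, rodent chemokines that act on Ccr1, were not confined to macrophages. Ccl6 was highest in Cbr2 F13a1 macrophages of the untreated library (2525 CPM, 2458 to 2594) and in Ly6c2 monocytes of the NAM library (1937 CPM, 1855 to 2020, beside 1888 CPM in Cbr2 F13a1 macrophages, which led after thinning and with gates asking for 1 UMI more). Mmp12 macrophages held 2146 and 1561 CPM of Ccl6, whereas Vcam1 Dnase1l3 macrophages held 373 and 280 CPM. Cd209a dendritic cells had 806 and 983 CPM, 18.1-fold and 25.3-fold the lymphoid level.

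Ccl9 was the 1 chemokine with its highest level outside the macrophages in both libraries. Ctsk cells led in both libraries with 1529 CPM (1474 to 1584) and 1626 CPM (1571 to 1682), followed by Tgfbi cells with 1485 CPM (1425 to 1546) and 1283 CPM (1228 to 1341) and monocytes with 1442 CPM (1373 to 1514) and 1276 CPM (1210 to 1344). In the untreated library the intervals of these groups overlapped in that order, and in the NAM library Ctsk cells were above the others. A Ccl9 UMI was found in 93.7% and 95.9% of Ctsk cells after thinning (99.1% and 100% before), against 7.42% and 7.74% of lymphoid cells (11.3% and 11.6% before). Median depths were 16638 and 16433 UMIs in Ctsk cells.

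Both receptors were highest in Ly6c2 monocytes. Ccr2 stood there at 483 CPM (443 to 525) and 623 CPM (577 to 671), 2.13-fold the next group in pooled order, the Tgfbi cells, at 277 CPM (252 to 304) and 243 CPM (219 to 268). In macrophage groups high in Ccr2 ligands, Ccr2 was at 54.0 and 48.9 CPM (Cbr2 F13a1), 77.9 and 60.9 CPM (Mmp12) and 119 and 143 CPM (interferon-high). After thinning, a Ccr2 UMI was found in 61.7% and 75.9% of monocytes (76.6% and 83.2% before) and in 31.1% and 24.2% of lymphoid cells (36.7% and 29.0% before), some of which express Ccr2.

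Ccr1 stood at 328 CPM (295 to 363) and 338 CPM (305 to 374) in monocytes, 1.40-fold the next group. Vcam1 Dnase1l3 macrophages (217 and 230 CPM), Cd209a dendritic cells (215 and 239 CPM), Cbr2 F13a1 macrophages (210 and 234 CPM) and Ctsk cells (207 and 269 CPM) came next, and in the untreated library these groups could not be told apart by their intervals. Type 1 dendritic cells had 2 UMIs of Ccr1 in each library. Mature dendritic cells (12 and 13 cells) had 0 Ccr1 UMIs in the untreated library, which allows up to 27.4 CPM by a limit of 3 counts, and 0 Ccr2 UMIs in the NAM library, which allows up to 39.4 CPM by the same limit.

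The groups therefore held unequal parts of each gene's RNA. Cbr2 F13a1 macrophages held 7.99% of all gated myeloid UMIs in the untreated library but 27.9% of the Ccl8, 24.2% of the Ccl6 and 16.3% of the Ccl7 UMIs. In the NAM library, where this group had 110 cells in place of 208, it held 3.70% of all UMIs and 15.9% of Ccl8, 11.7% of Ccl6 and 9.14% of Ccl7. Mmp12 macrophages held 25.4% and 33.1% of Ccl6 and 9.86% and 12.6% of all UMIs. Ctsk cells held 15.8% and 18.2% of Ccl9 and monocytes 13.7% and 16.0% of Ccr2.

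In all myeloid cells together, the levels of the 10 genes in the NAM library stood within 1.5-fold of those in the untreated library. Differences are given as log2 ratios of the levels in CPM, with untreated as the denominator, and a ratio past 1.5-fold (0.58) in either direction is called, of which there were 0 among the 10 genes, against 9.49% of the 12313 genes with 20 or more UMIs and 2.8% of those with 500 or more. Ccl6 was lowest in the NAM library, going from 832 CPM without NAM to 596 CPM with it, a log2 ratio of -0.48 (-0.51 to -0.45). Ccl3 had a log2 ratio of -0.39 (456 and 348 CPM), and Ccl7 and Ccl8 of -0.24 each. Ccl4 (0.02) and Ccr1 (0.15) were the chemokine and the receptor with the highest ratios. The median over the 10 genes was -0.15, beside -0.03 over all genes tested.

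In macrophages 1 of the 10 genes was called, lower in the NAM library, where 6.81% of genes with 20 or more UMIs were lower and 3.16% higher by that rule (2.29% lower among genes with 500 or more). This was Ccl6, with 877 CPM (865 to 890) without and 584 CPM (574 to 594) with NAM, a log2 ratio of -0.59 (-0.62 to -0.56). It lay at the threshold and was within it when the 6 macrophage groups weighed alike (-0.52) or when NAM groups were weighted by their untreated shares (-0.48). Ccl6 was lower in the NAM library in each of the 6 groups, with log2 ratios from -0.41 in Vcam1 Dnase1l3 to -0.87 in proliferating macrophages. In the latter group its level was 461 CPM without and 252 CPM with NAM.

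**Figure D2:**
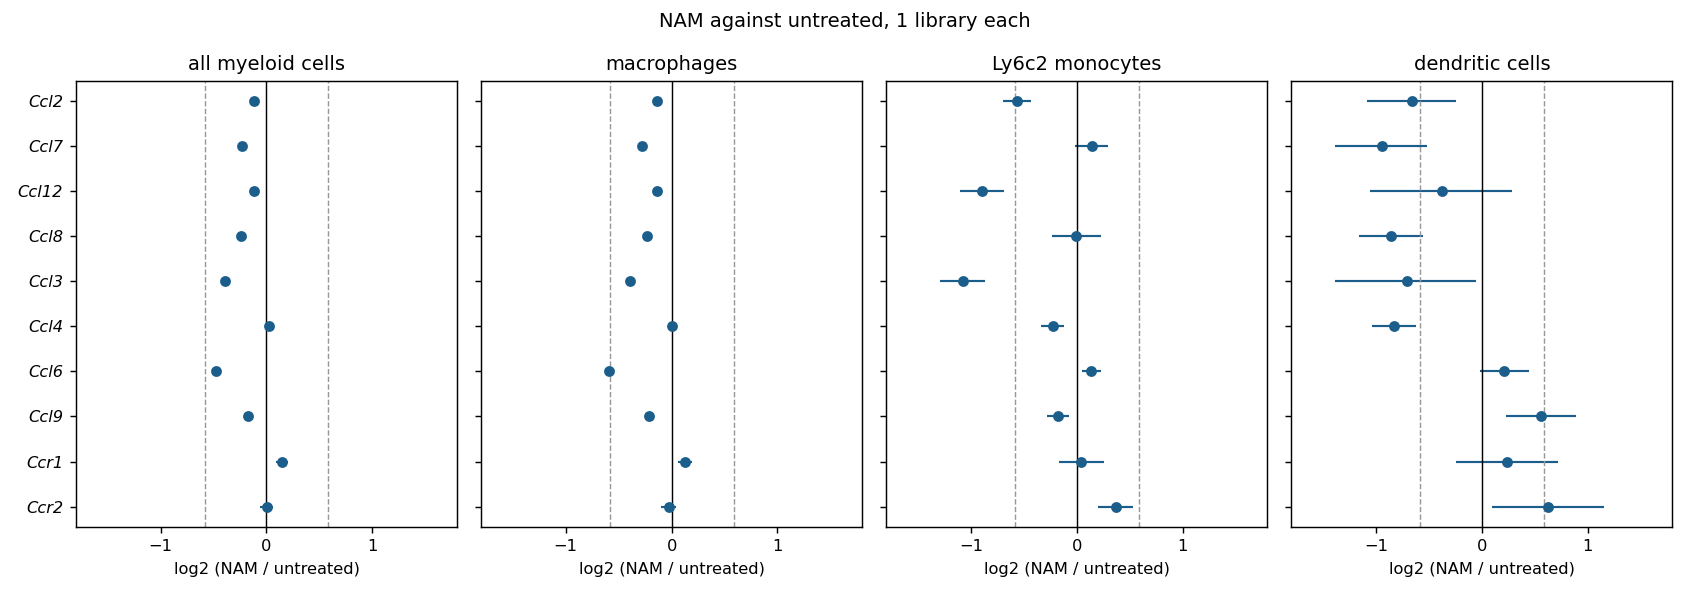
Log2 ratio (NAM to untreated levels) of the 10 genes in all myeloid cells, macrophages, Ly6c2 monocytes and dendritic cells, with exact 95% intervals for counting error as bars and dashed lines at 1.5-fold. Ccl6 in macrophages (-0.59) lies at the dashed line, and Ccl3 (-1.08) and Ccl12 (-0.90) in monocytes lie below it.

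Ccl8 had a log2 ratio of -0.23 (-0.25 to -0.22) in macrophages, at 5799 CPM in untreated and 4933 CPM in NAM cells. Within 4 of the 6 groups the ratio was above 0, at 0.06 in Cbr2 F13a1, 0.03 in Vcam1 Dnase1l3, 0.10 in Mmp12 and 0.17 in other macrophages. With the 6 groups weighing alike the ratio in macrophages was -0.13, and with the NAM groups weighted by their untreated shares, a weighting chosen after seeing the data, it was -0.03. The resident-type markers (7 genes, among them the gate markers Cbr2, F13a1 and Lyve1) together stood at 2843 CPM in untreated and 1957 CPM in NAM macrophages. The part of the makeup of macrophages in the Ccl8 ratio was not tested. Ccl8 was lower in the NAM library in interferon-high macrophages (6799 and 4482 CPM, -0.60) and proliferating macrophages (3387 and 2346 CPM, -0.53), of which the former was past 1.5-fold, where 10% of genes and 1.88% of those with 500 or more UMIs were lower.

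The Ccr2 ligands differed among themselves in macrophages. Ccl7 had a log2 ratio of -0.28, Ccl2 of -0.14 and Ccl12 of -0.14. In Cbr2 F13a1 macrophages Ccl12 was higher in the NAM library (2553 and 3327 CPM, 0.38), whereas in Vcam1 Dnase1l3 macrophages it was lower (2147 and 1437 CPM, -0.58). Ccl4 was likewise higher in the NAM library in interferon-high (0.47) and Cbr2 F13a1 macrophages (0.43) and lower in Vcam1 Dnase1l3 macrophages (-0.25). Within the Cbr2 F13a1 gate the 7 resident-type markers together stood at 6465 CPM in untreated and 4649 CPM in NAM cells, and their part in these ratios was not tested. The only gene past 1.5-fold in the Vcam1 Dnase1l3 group was Ccl3, at 703 and 422 CPM (-0.74), where 9.27% of genes and 3.11% of those with 500 or more UMIs were lower. In proliferating macrophages Ccl6 alone was past it, where 7.64% and 1.93% were lower. Whether these ratios differ between groups was not tested.

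**Figure D3:**
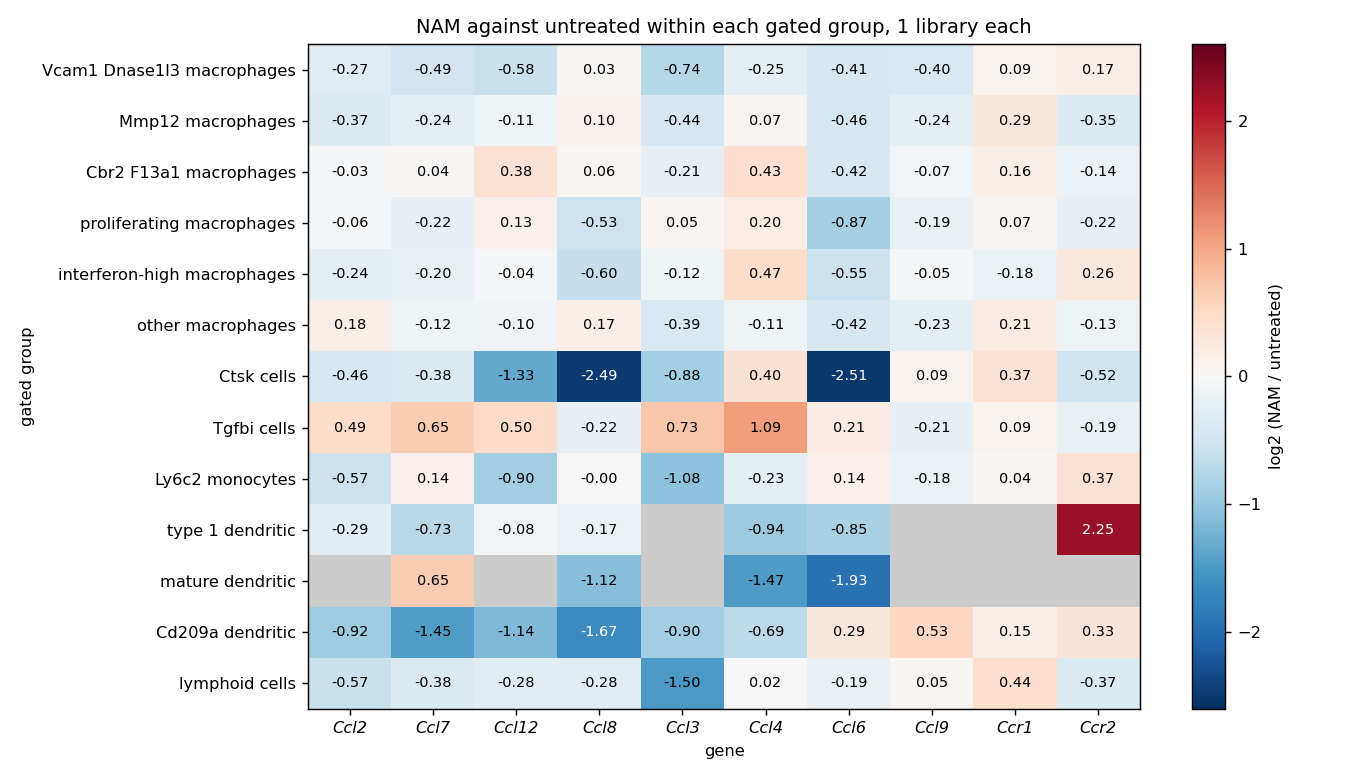
Heat map of log2 ratios (NAM to untreated levels) for each of the 10 genes and each gated group. Grey cells had fewer than 20 UMIs over both libraries. Ccl6 is below 0 in all 6 macrophage groups, and Ccl3, Ccl4 and Ccl7 are past 1.5-fold above 0 in Tgfbi cells.

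In Ly6c2 monocytes 2 of the 10 genes were called, both lower in the NAM library, where 12.2% of genes with 20 or more UMIs and 4.78% of those with 500 or more were lower. Ccl3 stood at 526 CPM (484 to 570) and 249 CPM (221 to 281), a log2 ratio of -1.08 (-1.29 to -0.87), and Ccl12 at 496 CPM (456 to 539) and 267 CPM (237 to 299), a log2 ratio of -0.90 (-1.11 to -0.69). Ccl2 was just within the threshold at -0.57 (-0.70 to -0.44). The receptor of Ccl2 and Ccl12 differed the other way, Ccr2 having 483 and 623 CPM and a log2 ratio of 0.37 (0.20 to 0.53). Ccr1 (0.04), Ccl8 and Ccl7 (0.14) had intervals that held 0, and Ccl6 had 1760 and 1937 CPM (0.14). The median over the 10 genes was -0.09, and -0.01 over all genes tested.

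Few monocytes held most of the Ccl3 RNA, since the 10% of cells with most of it carried 83.7% of its UMIs among untreated and 83.0% among NAM monocytes. For Ccl12 these shares were 76.6% and 74.9%, and for Ccl2 63.2% and 62.5%. Ccr2 was spread more evenly, with 34.6% and 27.6% of its UMIs in such cells. The summed macrophage markers of the monocyte gate stood at 6703 and 7166 CPM, and none of the 9 was at 0 in both libraries. Mmp12, a macrophage metalloelastase, was at 30.4 CPM in untreated and 74.1 CPM in NAM monocytes. The part of these values in the ratios was not tested.

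Tgfbi cells, named for the Tgfbi gate and also holding Ccr2, differed in the other direction, with 3 of the 10 genes called higher in the NAM library, where 7.43% of genes and 2.04% of those with 500 or more UMIs were higher. Ccl4 stood at 167 CPM (147 to 188) and 356 CPM (327 to 387), a log2 ratio of 1.09 (0.88 to 1.31). Ccl3 had 80.9 and 134 CPM (0.73, 0.41 to 1.06, and 0.48 after thinning) and Ccl7 had 437 and 686 CPM (0.65, 0.51 to 0.79, and 0.576 with gates asking for 1 UMI more), so that both were within 1.5-fold under these alternatives. These levels stayed below those of the macrophage groups in both libraries, and those of Ccl3 and Ccl4 had no background to be set against. In this gate Mmp12 was at 54.0 and 204 CPM, Hmox1 at 104 and 121 CPM, the proliferation markers were at 454 and 665 CPM and the macrophage markers at 4740 and 5285 CPM, and the part of these in the ratios was not tested.

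Ctsk cells had 4 of the 10 genes called lower in the NAM library, where 11% of genes and 2.48% of those with 500 or more UMIs were lower. Ccl8 stood at 1940 and 345 CPM (-2.49), Ccl6 at 255 and 44.6 CPM (-2.51), Ccl12 at 180 and 71.7 CPM (-1.33) and Ccl3 had a ratio of -0.88. Ccl6 in NAM Ctsk cells was at 1.15-fold the lymphoid level, with an interval that held 1, so it could not be told from background there, and Ccl12 was at 1.34-fold. Ccl8 was at 7.33-fold the lymphoid level in untreated and 1.59-fold in NAM Ctsk cells. The 5 cells with most Ccl8 held 89.6% of its UMIs in the untreated library, 1 of them with 1422 UMIs, and among Ctsk cells with fewer than 20 C1q UMIs the ratio was -0.37 for Ccl8, -0.57 for Ccl12, -1.001 for Ccl6 and -2.02 for Ccl3, so that Ccl8 and Ccl12 were within 1.5-fold. Ccl3, with 109 and 62 UMIs of which 1 NAM cell held 31, was within it after thinning (-0.49). The macrophage markers of the gate were at 5835 and 4212 CPM and the resident-type markers at 405 and 135 CPM. Ccl9, the chemokine these cells hold most evenly, had a log2 ratio of 0.09 (0.02 to 0.16), and Ccr1 of 0.37 (0.19 to 0.56).

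In the 3 dendritic groups together, 5 of the 10 genes were called lower and 1 higher in the NAM library, where 13.1% and 10.2% of genes were. The lower genes were Ccl7 (152 and 79.2 CPM, -0.94), Ccl8 (-0.85), Ccl4 (623 and 351 CPM, -0.83), Ccl3 (-0.71) and Ccl2 (-0.66), and the higher gene was Ccr2 (59.0 and 90.7 CPM, 0.62). These rest on few cells and few UMIs, with 137 and 69 UMIs of Ccl7. Ccl8 was close to its background in these cells, at 1.10-fold and 0.74-fold the lymphoid level. Its ratio counts among the 5 but is not read as a difference in expression. Ccl7 was at 1.74-fold the lymphoid level without and 1.18-fold with NAM, the latter with an interval that held 1, so its NAM level could not be told from background. Without the 5 cells with most UMIs of the gene in each library, Ccl2 (-0.47), Ccl7 (-0.41), Ccl3 (-0.19) and Ccl4 (-0.57) were within 1.5-fold, Ccl8 (-0.60) and Ccr2 (0.90) stayed past it, and Ccr1 passed it (0.65 in place of 0.24). After thinning Ccr2 was at 0.056 and Ccr1 at -0.40, so that neither receptor had a steady ratio in dendritic cells. Without such cells the Ccl4 ratio of Cd209a dendritic cells was 0.05 in place of -0.69. The chemokines with 10-fold or more of the lymphoid level in Cd209a dendritic cells, Ccl6 and Ccl9, had ratios of 0.29 and 0.53 there. In the NAM library 5 of 39 such cells held 57.4% of the Ccl6 UMIs, and the Ccl6 ratio of all dendritic cells (0.21) was -0.30 without the 5 cells with most of them.

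Within macrophages, RNA of all 10 genes was concentrated in fewer cells than that of most genes at 100 to 10000 CPM. Genes were not matched by level within that range, and these UMIs were not thinned. The 10% of cells with most Ccl6 held 65.0% of its UMIs among untreated and 66.5% among NAM cells, and for Ccl8 the shares were 59.4% and 59.1%. The median gene among 1348 and 1353 genes at 100 to 10000 CPM had 31.8% and 31.0%, and 98.3% and 98.6% of these genes had a smaller share than Ccl6. Ccr1 was the most evenly spread of the 10, with 39.3% and 38.6%, above 85.9% and 87.8% of those genes. The highest count of Ccl8 in 1 macrophage was 1104 UMIs without and 1316 UMIs with NAM. In Cbr2 F13a1 macrophages Ccl8 was less concentrated (40.2% and 34.4%), as was Ccl9 in Ctsk cells (32.3% and 30.8%).

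**Figure D4:**
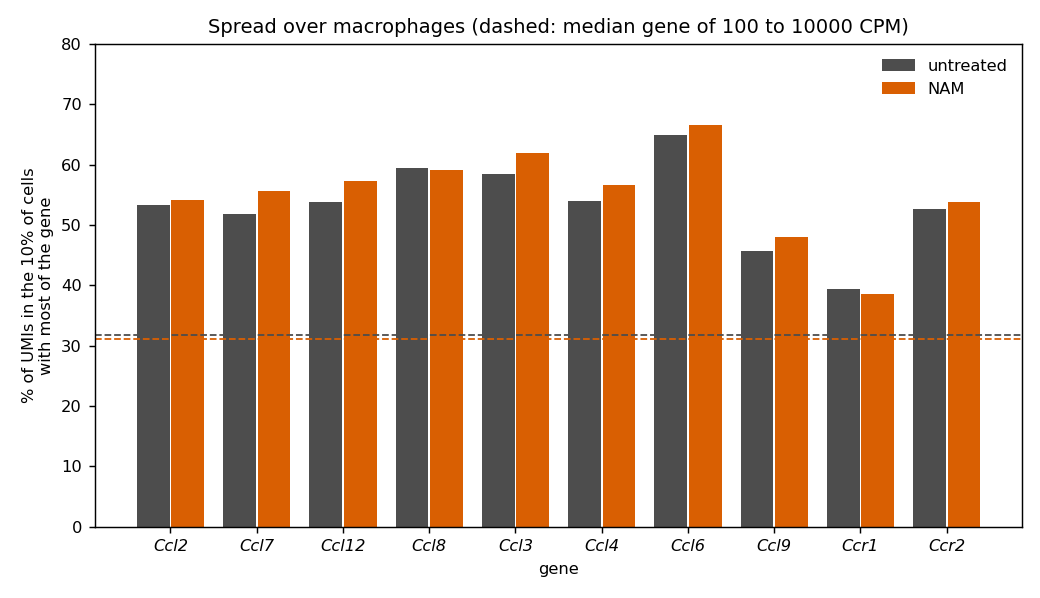
Percent of each gene's UMIs held by the 10% of macrophages with most of them, in the untreated (grey) and NAM (orange) library. The dashed line is the median gene of 100 to 10000 CPM (31.8% and 31.0%), and all 10 genes are above it, from 38.6% for Ccr1 to 66.5% for Ccl6.

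Over single macrophages the highest correlations were between neighbouring genes, though not every pair of a block was above pairs of different blocks. With cells thinned to 3000 UMIs, Spearman's rho was 0.65 and 0.68 for Ccl2 with Ccl7 and 0.56 and 0.54 for Ccl3 with Ccl4, the highest pairs in both libraries. Ccl12 followed Ccl2 (0.37 and 0.44) and Ccl7 (0.39 and 0.42), while Ccl8, in the same block, followed Ccl7 less (0.28 and 0.26). Of different blocks, Ccl2 with Ccl4 (0.34 and 0.41) and Ccl7 with Ccl4 (0.33 and 0.38) were above the pairs of Ccl8 with Ccl7, Ccl12 (0.18 and 0.20) and Ccl2 (0.16 and 0.13). The median over the 45 pairs was 0.12 in both libraries. Ccr2 ran against Ccl8 (-0.29 and -0.28). In monocytes the highest pair was Ccl6 with Ccl9 (0.61 and 0.55), ahead of Ccl3 with Ccl4 (0.49 and 0.41) and Ccl2 with Ccl7 (0.39 and 0.38). Cells of a library share its pool of mice and its free RNA, so these correlations are descriptions.

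**Figure D5:**
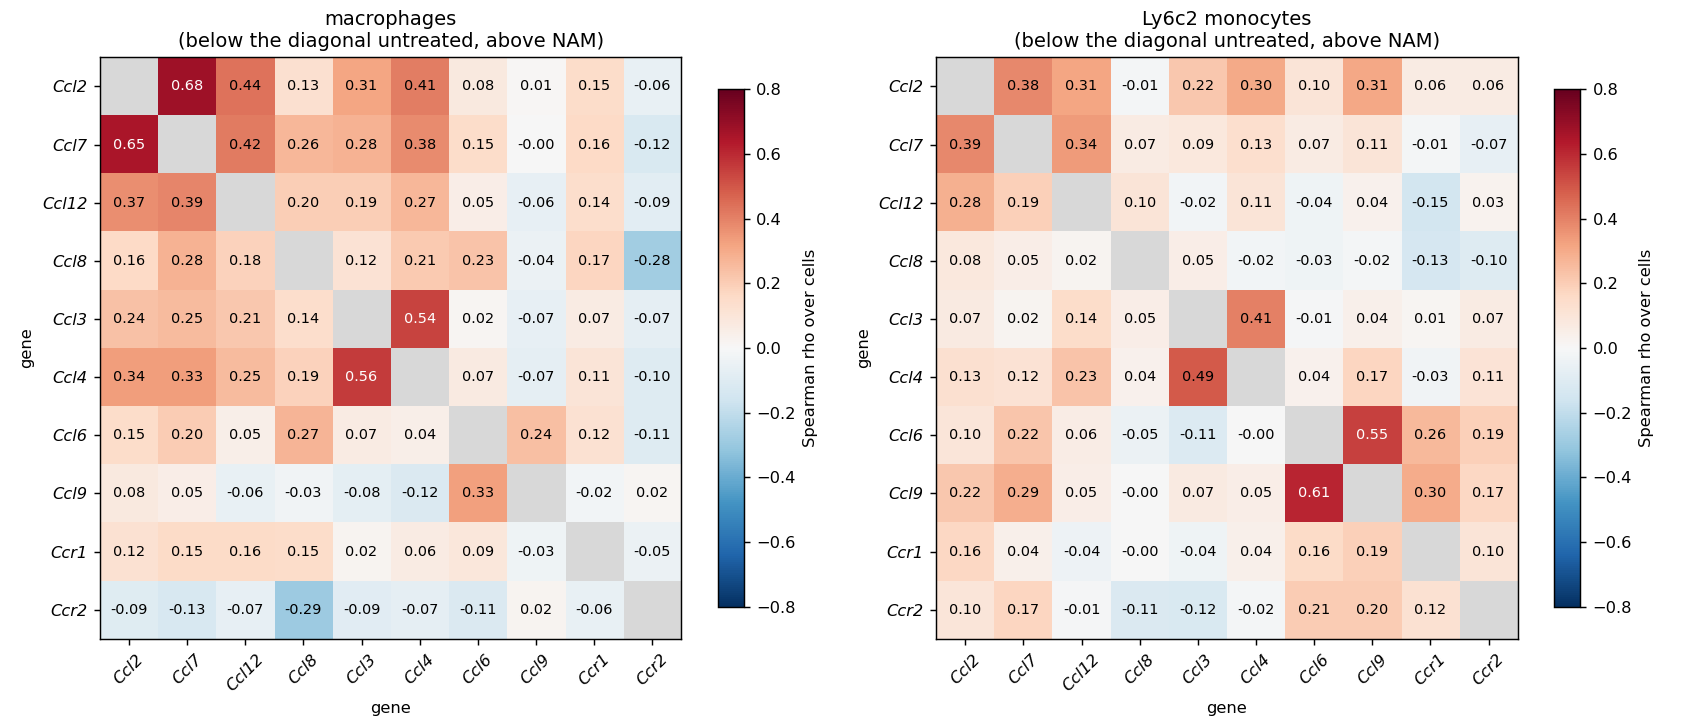
Spearman's rho between the 10 genes over single macrophages and single Ly6c2 monocytes at 3000 UMIs per cell, with the untreated library below and the NAM library above the diagonal. Ccl2 with Ccl7 (0.65 and 0.68) and Ccl3 with Ccl4 (0.56 and 0.54) lead in macrophages, and Ccl6 with Ccl9 (0.61 and 0.55) in monocytes.

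Across the 12 groups in both libraries (24 points that share their libraries), Pearson's r of log2(CPM + 10) named the genes with the most similar patterns among 9095 genes with 200 or more UMIs. Ccl7 and Ccl12 were each other's nearest gene (r = 0.98). Ccl2 was nearest to Cd93, Ctsb and Ccl7 (0.97 each), and Ctsb and the gate-type marker Apoe (0.97 each) were also near Ccl7. Ccl12 had Rnase4 (0.98) and Emilin1 (0.97) beside Ccl7.

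Ccl8 was nearest to Gas6 (0.97), the ligand of the TAM receptors of macrophages, then Frmd4b and Sash1 (0.96 each). Ccl3 was nearest to Lair1, Laptm4a and Cd302 (0.95 each) and Ccl4 to Unc93b1 (0.92), St3gal6 and Aif1 (0.91 each). Ccl6 was nearest to Lilr4b, Cxcl2 and Gda (0.89 each), and Ccl9 to Dok2, Capg (0.94 each) and Fam129b (0.93). Ccr1 was nearest to Tyrobp (0.94), an adaptor of activating myeloid receptors, Lcp2 (0.92) and Rnf149 (0.90). Ccr2 was nearest to Sirpb1a, Sirpb1b and Sirpb1c (0.92, 0.92 and 0.90), which are close copies of each other, so that their counts are uncertain.

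Of 25 other CC chemokines and CC receptors, 22 had a row and 11 had 20 or more UMIs in myeloid cells, of which 2 were past 1.5-fold higher and 3 lower in the NAM library, beside 2.85% and 6.64% of all genes, with a median of 0.05. Ccl17, a Ccr4 ligand of dendritic cells, stood at 2.35 and 5.29 CPM (1.17), and Ccr7, the receptor that brings dendritic cells to lymph nodes and a marker used in gating, at 48.1 and 22.0 CPM (-1.13). Within mature dendritic cells (12 and 13 cells), which are gated by Ccr7, it was not lower, at 4398 CPM without and 4878 CPM with NAM. The other 3, named after their values were seen, had fewer than 100 UMIs (Ccr6, Ccr3 and Ccr9). Ccl5, a chemokine of T and NK cells as well as myeloid cells, had 274 and 339 CPM (0.31). Of 28 genes of chemokine receptor signalling and migration 0 were past 1.5-fold in either direction. Of all genes, 9.49% of those with 20 or more UMIs and 2.8% of those with 500 or more were past it. The median of the 28 was -0.13, beside -0.03 over all genes with 20 or more UMIs. Gnai2 (809 and 616 CPM, -0.39) and Pik3r5 (37.0 and 28.2 CPM, -0.40) were 2 of the 28.

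Since Ccl2, Ccl3 and Ccl4 respond to tissue handling, 19 genes induced by dissociation were measured beside them. In all myeloid cells, where 6.64% of genes with 20 or more UMIs and 2.32% of those with 500 or more were lower, 5 of the 19 were past 1.5-fold lower in the NAM library (Hspb1 -2.62, Hspa1b -2.44, Hspa1a -1.41, Jun -0.75 and Dnajb1 -0.67) and 0 higher, with a median of -0.10 and a sum of 13441 and 12109 CPM. In monocytes 2 were higher and 2 lower (median -0.11), beside 9.1% and 12.2% of all genes, and in Ctsk cells 8 were lower (median -0.57), beside 11%. The part of handling in the chemokine ratios was not tested.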

How the data were processed

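CD45+ cells of 1 untreated and 1 NAM library (each a pool of 3 mice) were compared. The authors deposited raw UMI counts of each gene in each cell, made with Cell Ranger on mm10 from 10x Genomics 3′ libraries, without normalization. The submitters' notes also name Seurat. Every barcode had at least 1000 genes, 3000 UMIs and at most 10% mitochondrial UMIs, the study's filter. The 10 genes, gene lists and markers were chosen with earlier results of these data known, and the UMI thresholds of the gates were set from the distribution of marker UMIs in these data.

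Cells were gated in a fixed order: mixed cells, lymphoid cells (5 or more UMIs of 8 lymphoid markers, of which 7 had a row), neutrophils (10), Xcr1 Clec9a (2), mature (Ccr7 2, Fscn1 1) and Cd209a (2) dendritic cells, Ctsk cells (5), macrophages (20 UMIs of C1qa, C1qb and C1qc), Ly6c2 monocytes (Ly6c2 3, Plac8 2) and Tgfbi cells (5). Macrophages were divided into proliferating (5), interferon-high (5), Mmp12 (5, with a further marker not reported here), Cbr2 F13a1 (3, with Lyve1), Vcam1 Dnase1l3 (3) and other macrophages. Cells in no gate (120 and 168) stayed out of the 12 groups. A threshold changes which cells a group holds, and so its levels.

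UMIs were summed per library and group, divided by the group's total (CPM) and given with exact Poisson intervals, shares of cells with exact Clopper-Pearson intervals and ratios with exact conditional binomial intervals, all at 95%. Counts were thinned to 3000 UMIs per cell for shares of cells with a UMI and for correlations, which left out 0 cells. The parts of a gene's UMIs held by groups or by the cells with most of them were taken without thinning. No doublets were removed in the values reported. The ratio step was tested on simulated data. Genes were named if they were 1 of the 10, if they were in either chemokine list with 100 or more UMIs and past 1.5-fold in myeloid cells, or if they were among the 3 most alike to a gene of the 10. Ccl5, Gnai2 and Pik3r5, within 1.5-fold in all myeloid cells, were named outside this rule. So were Ccr6, Ccr3, Ccr9, the markers and the genes of dissociation. Alternatives were gates asking for 1 UMI more, thinning, median-of-ratios size factors, leaving out the top 2.5% of cells by Scrublet score or the 5 cells with most UMIs of the gene, mean CPM over cells, 2-fold, another or no minimum for the background, equal or untreated weights of the macrophage groups, and Ctsk cells with little C1q. Python 3.11.15, NumPy 2.4.6, SciPy 1.17.1, pandas 2.3.3, matplotlib 3.10.9 and scanpy 1.11.5 were used.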

Additional observations from a re-analysis of the deposited data

Results flagged for a closer look

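Ratios past 1.5-fold in opposite directions in 2 groups of cells (30 or more cells per library, 100 or more UMIs) were found for 3 chemokines, and Tgfbi cells were the higher group each time. The share of all genes that meet this rule was not counted. Of genes with 20 or more UMIs, 16.6% were past 1.5-fold in either direction in Tgfbi cells. In the other groups named here this share ran from 13.5% (Vcam1 Dnase1l3 macrophages) to 29.7% (type 1 dendritic cells). Ccl3 had a log2 ratio, NAM over untreated, of 0.73 in Tgfbi cells, -0.74 in Vcam1 Dnase1l3 macrophages, -0.88 in Ctsk cells and -1.08 in Ly6c2 monocytes. After thinning it was 0.48 in Tgfbi cells and -0.49 in Ctsk cells, both within 1.5-fold. Ccl4 had 1.09 in Tgfbi cells, -0.94 in type 1 dendritic cells and -0.69 in Cd209a dendritic cells, and without the 5 cells with most of its UMIs in each library the dendritic ratios were -0.26 and 0.05, both within 1.5-fold. Ccl7 had 0.65 in Tgfbi cells and -1.45 in Cd209a dendritic cells, where it was -0.24 without such cells and 1 cell held 42.2% of the 83 untreated UMIs. In NAM Cd209a dendritic cells Ccl7 was at 1.43-fold the lymphoid level (0.93 to 2.14), so it could not be told from background there. With 1 library per group these differences were not tested.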

How the results depend on the processing

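No paired analysis was possible because each group had 1 library. In all myeloid cells 0 of the 10 genes were past 1.5-fold under each alternative. In macrophages the count of 1 (Ccl6) became 0 with median-of-ratios size factors, with 2-fold, with macrophage groups weighing alike and with NAM groups at their untreated shares, and the Ccl6 ratio ran from -0.65 to -0.48. In monocytes the count of 2 became 1 at 2-fold. It was 3 with gates asking for 1 UMI more and without the highest Scrublet scores, Ccl3 ran from -1.35 to -0.66 and Ccl12 from -1.21 to -0.70. In dendritic cells the count of 6 became 3 without the 5 cells with most UMIs and 0 at 2-fold. Among ratios past 1.5-fold, signs turned for Ccr2 in type 1 dendritic cells (-0.093 thinned, against 2.25), Ccl7 in mature dendritic cells (-0.13 without the 5 cells, against 0.65) and Ccl4 in Cd209a dendritic cells (0.054 without the 5 cells, against -0.69). The median rho of untreated macrophages was 0.15 (0.146) without thinning. The highest group stayed the same for 17 of 20 gene and library pairs with thinning and for 18 with gates asking for 1 UMI more. Of 413 alternatives over 65 ratios of single genes, 394 kept the sign, and 19 of 34 ratios past 1.5-fold were within it under some alternative. Size factors moved ratios by at most 0.09. With no minimum of UMIs, 27.6% of all genes were past 1.5-fold in myeloid cells, 28.3% in macrophages, 44.6% in monocytes and 47.4% in dendritic cells. The minimum of 500 UMIs, the gate of Ctsk cells with little C1q and the untreated weights were chosen after seeing the data. The cause of these shifts was not tested. The dendritic groups held only 12 to 39 cells per library, and their intervals for counting error leave out the variation between cells.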

Other observations

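Cells that met no gate (120 untreated and 168 NAM cells) had 2106 and 1494 CPM of Ccl6 and 1407 and 1464 CPM of Ccl9, and Mmp12 stood at 1175 and 1431 CPM there, beside 857 and 1157 CPM in Mmp12 macrophages. Their macrophage markers were at 5884 and 5333 CPM. The 4 untreated and 11 NAM cells of the neutrophil gate had 7862 and 1402 CPM of Ccl4 and 3902 and 622 CPM of Ccl3, too few cells for a comparison. In dendritic cells Ccl17 stood at 22.3 and 144 CPM, and in Ly6c2 monocytes Ccl5 stood at 772 and 1374 CPM.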
